A study of Mus musculus with 18 samples.

Results

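The genes described here are the potassium channel genes of the mouse substantia nigra, a part of the midbrain with dopaminergic neurons and, in its reticular division, fast firing GABAergic neurons. They were chosen by name from the deposited table of gene values: every gene whose symbol starts with Kcn, without Kcnj6, Kcnj10 and Kcnj13 and without 5 antisense or overlapping transcripts, which left 91 of 55269 genes. Of these 91 members, 80 passed a filter on low values (at least 10 normalised reads in at least 6 of 18 libraries) and were tested. The 11 others, Kcna7, Kcna10, Kcne1, Kcne3, Kcnj1, Kcnj15, Kcnk15, Kcnk16, Kcnk18, Kcnmb3 and Kcnv2, had group means of at most 8.01 normalised reads and were not tested.

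Poly-A RNA was sequenced from 3 groups of 6 mice, all 3 months old. Intact mice are given as wild type, and no virus is named for them. AAV-GFP mice overexpressed green fluorescent protein from an adeno-associated virus (AAV), and AAV-SIRT3 mice overexpressed SIRT3, a deacetylase of mitochondria, each about a month after the virus was given. The promoter and serotype of the virus, the cells it reached, and the strain and sex of the mice are not given in the sources used here. Setting AAV-SIRT3 against AAV-GFP separates SIRT3 from the virus, and each virus group was also compared with intact mice, so that the comparisons with intact share their controls.

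Potassium channels let potassium leave the cell and so set the resting potential, end the action potential and limit how fast a neuron fires. Voltage-gated (Kv) channels open on depolarisation, calcium- and sodium-activated channels open as these ions enter, inward rectifiers and K2P leak channels hold the membrane near rest, and auxiliary subunits set how many channels reach the membrane and how fast they close. In dopaminergic neurons of the substantia nigra, A-type Kv4 channels and small-conductance calcium-activated channels pace the slow regular firing, and ATP-sensitive inward rectifiers tie it to metabolism, while Kv3 channels allow the fast firing of the GABAergic neurons.

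Libraries held 47182420 to 64728400 reads assigned to genes. Sirt3 itself ran from 1733 to 1920.0 normalised reads in intact mice, 1684 to 1936 with AAV-GFP and 1801 to 2041 with AAV-SIRT3, with a log2 fold change of 0.13 (SE 0.0422, adjusted p = 0.183) between the virus groups, so its transcript level is a weak check of the labels. All 10 dopaminergic markers were measured, with a summed level of 40569 to 55711 in intact mice, 35884 to 46655 with AAV-GFP and 41649.5 to 49171 with AAV-SIRT3. Intact replicates 1, 3 and 5 stood apart in a score of 10 thalamus markers (the mean log2 value, centred over the 18 libraries), at -0.712, -0.613 and -0.583, against -0.109 to 0.332 in the 15 other libraries. AAV-GFP replicate 2 and AAV-SIRT3 replicate 6 stood lowest in the Spearman correlation of a library's log2 deviations with transcript length across genes, at -0.342 and -0.341, against 0.095 to 0.206 in the intact libraries. In bulk tissue, fewer cells of a type and less RNA per cell cannot be told apart.

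The members together took 0.442 ± 0.0196% of the normalised reads in intact libraries, 0.431 ± 0.0123% with AAV-GFP and 0.432 ± 0.0158% with AAV-SIRT3 (SD, n = 6 each). Levels of different genes were compared as normalised reads per kb of the longest coding transcript. On that scale auxiliary subunits held 26.8% of the members' summed level in intact libraries and the 4 Kv3 genes 15.8%, ahead of Kv1 with 10.4%, inward rectifiers with 9.52% and K2P leak channels with 8.93%. The class of calcium- and sodium-activated channels, with Kcnu1 counted in it, held 8.18%. Kv4 held 4.77%, the EAG, ERG and ELK genes 3.73% and silent Kv subunits 3.35%.

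Kcnab2, a cytoplasmic beta subunit that accompanies Kv1 channels, had the highest level, 4364 ± 573 normalised reads per kb in intact libraries (SD, n = 6). Also high were Kcnc1, a Kv3 channel of fast firing neurons, at 2257 ± 141 and Kcnip4, a calcium-binding partner of Kv4 channels, at 2127 ± 181. These latter means differed from each other by less than the larger of their SDs. Kcna2, the partner of Kcna1 along axons, reached 1934 ± 267, and the leak channel gene Kcnk1 reached 1784 ± 90.6. The genes tied to dopaminergic pacemaking stood lower, Kcnd2 and Kcnd3 (Kv4 pores) at 1114 ± 95.8 and 955 ± 52.7, Kcnn3 (a small-conductance calcium-activated channel) at 1013 ± 89.5 and Kcnj11 (the pore of the ATP-sensitive channel) at 572 ± 19.4. Genes best known from non-neuronal cells ranged from Kcnj16, the astrocytic partner of Kcnj10, at 834 ± 109, through Kcnk13, a microglial leak channel, at 331 ± 21.8, to the pericyte gene Kcnj8 at 77.1 ± 12.7 and the microglial gene Kcnn4 at 5.31 ± 2.32.

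**Figure D1:**
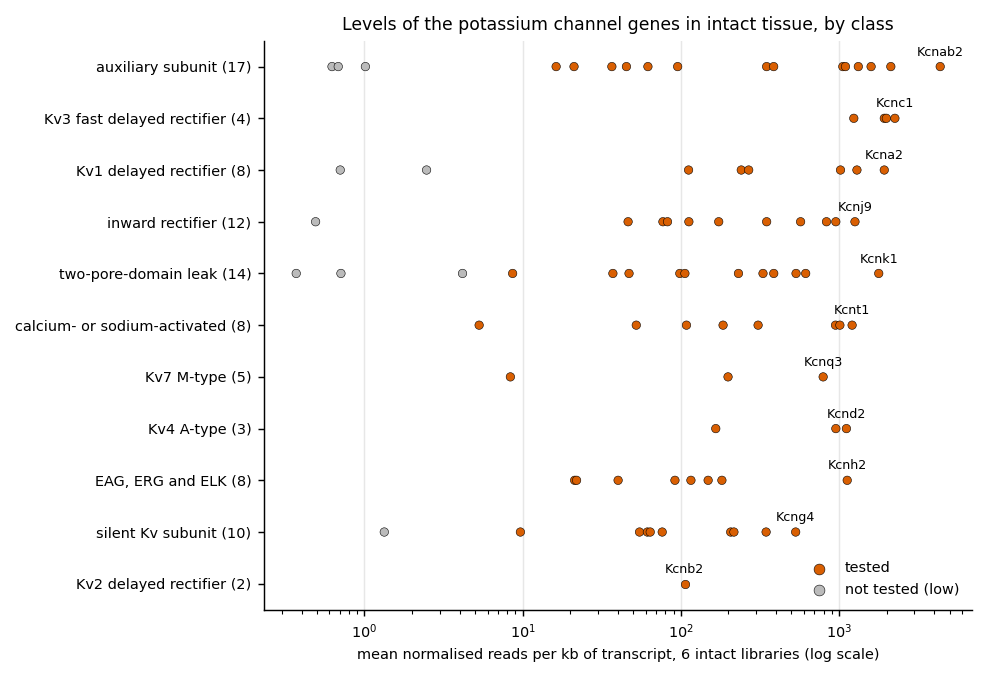
Mean level of the members in the 6 intact libraries, as normalised reads per kb of transcript on a log axis, 1 point per gene and 1 line per class with its number of members in parentheses; some members are not drawn, among them those at 0 in every intact library. Kcnab2 stands highest at 4364 and the 4 Kv3 genes lie close together, while most other classes span more than 10-fold.

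Between AAV-SIRT3 and AAV-GFP, 0 of the 80 tested members passed the threshold (limma, Benjamini-Hochberg adjusted p under 0.05 over all 19442 genes tested), where 0.113% of all genes passed. At an unadjusted p under 0.05 there were 9 members (11.2%), against 15.2% of all genes. Log2 fold changes of the members ran from -0.34 to 0.31 with a median of 0.01, 42 above and 38 below 0, beside a median of 0.00 over all genes tested. In 0 members did the 6 libraries of one virus group lie wholly above or below the other, against 0.751% of all genes.

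The member with the lowest p was Kcns3, a silent Kv subunit that alters Kv2 channels, which was singled out after its values were seen. Its normalised reads ran from 574 to 709 (median 635) in intact mice, from 494 to 620.0 (median 589) with AAV-GFP and from 596 to 795 (median 709) with AAV-SIRT3. All 3 groups overlapped, with a log2 fold change between the virus groups of 0.30 (SE 0.0776, adjusted p = 0.108). DESeq2 on whole reads called it (adjusted p = 0.0231), beside 1.59% of all genes. So did limma without AAV-GFP replicate 2 (adjusted p = 0.0422), beside 4.43% of all genes. Kcnj11 gave 0.14 (SE 0.0461, adjusted p = 0.182), Kcnn3 -0.03 (SE 0.0745, adjusted p = 0.901), and Kcnd3 0.07 (SE 0.0549, adjusted p = 0.544) between the virus groups.

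Against intact mice, AAV-SIRT3 libraries differed in 15 of the 80 members (18.8%), 6 higher and 9 lower, beside 21.7% of all genes tested, 11.3% higher and 10.3% lower. The genes that rose were Kcna6, Kcnf1, Kcnip4, Kcnj9, Kcnk1 and Kcnk3, and those that fell were Kcna1, Kcna3, Kcnb2, Kcnh1, Kcnh5, Kcnh7, Kcnj2, Kcnk9 and Kcnt1. Their log2 fold changes ran from -0.80 to 0.46, and the median over all 80 members was -0.01, beside 0.00 over all genes. The groups did not overlap in 6 members, Kcna1, Kcna3, Kcna6, Kcnb2, Kcnh5 and Kcnk1, a share of 7.5% beside 9.33% of all genes. The members' shares were thus close to or below the background. The p-values rest on the spread between mice within groups, pooled over all 3 groups of 6 and moderated by a variance trend over all genes.

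AAV-GFP libraries differed from intact in 3 of the 80 members (3.75%), beside 1.84% of all genes. Kcnip4 rose (1.25% of the members, beside 0.823% of all genes higher), and Kcnb2 and Kcnk9 fell (2.5%, beside 1.02% lower). The groups did not overlap in Kcnb2 and Kcnk9, beside 1.86% of all genes. At an unadjusted p under 0.05 there were 28 members (35%) in this comparison, against 19.1% of all genes. The count of 3 changed with single libraries, as did the share of all genes. It fell to 1, Kcnip4, without AAV-GFP replicate 3 or intact replicate 3, 4 or 5, beside 0.664 to 0.828% of all genes, and rose to 5 without AAV-SIRT3 replicate 6 or intact replicate 2 or 6, beside 2.32 to 2.78%. With the thalamus score as a covariate it was 0, beside 0.195%. Both falls were lost with a trend in transcript length removed.

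**Figure D2:**
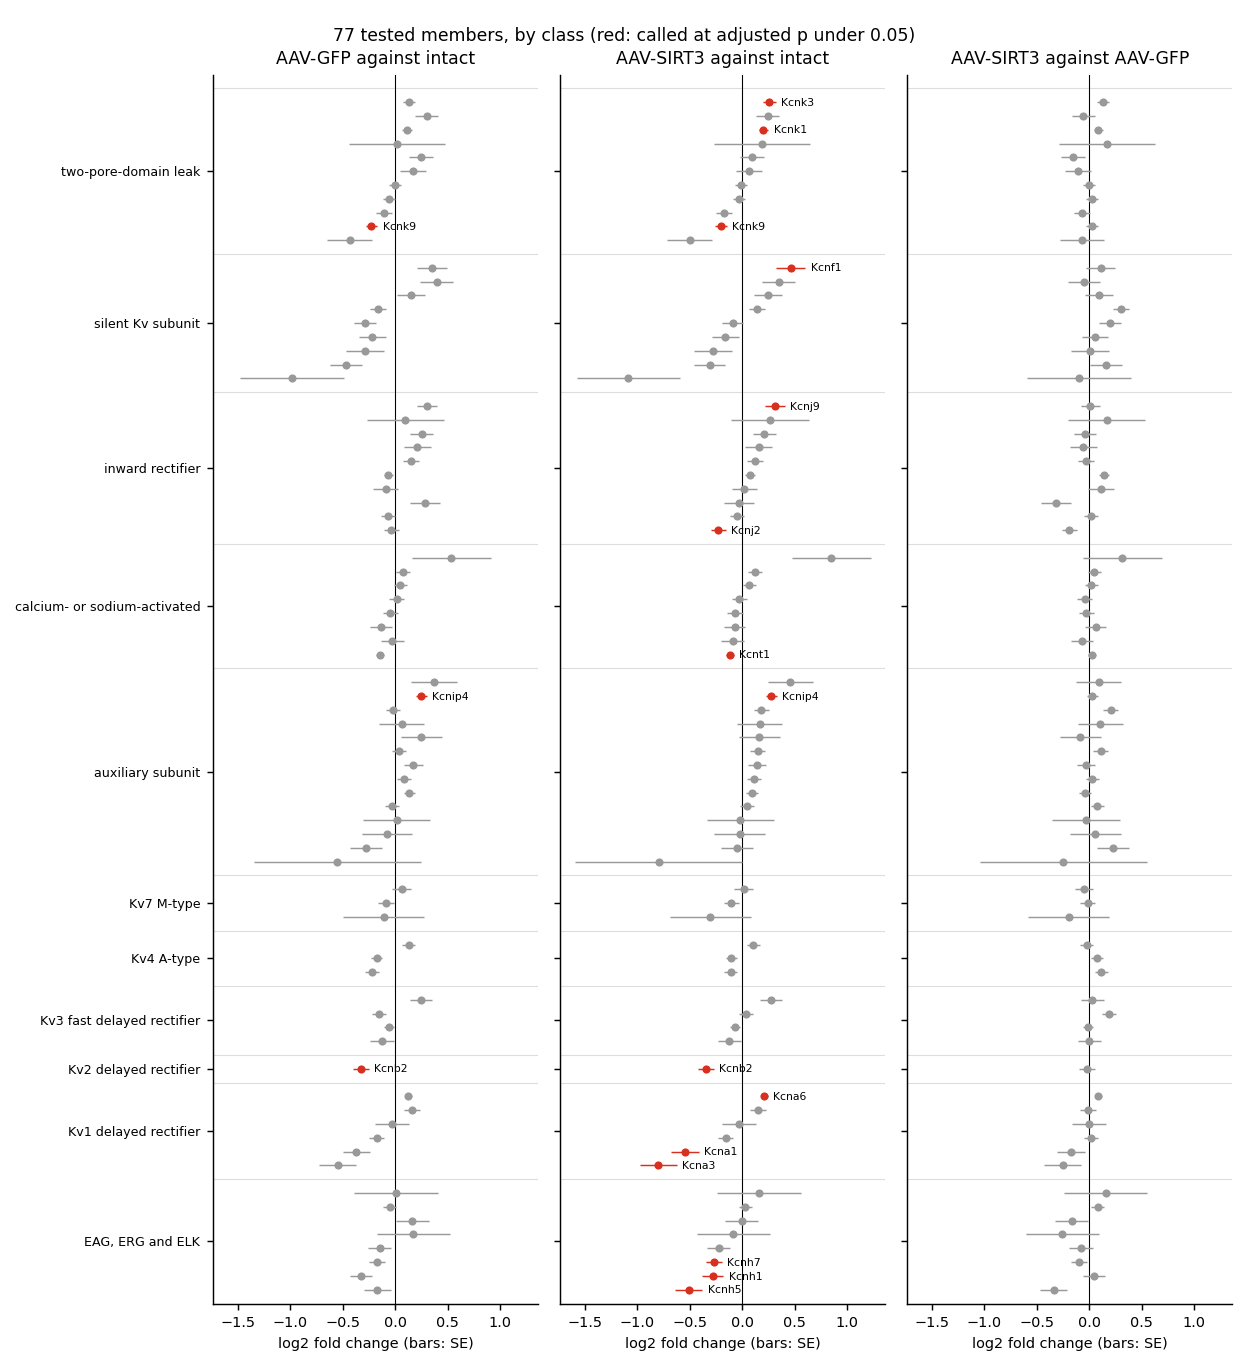
Log2 fold change of 77 of the 80 tested members with its SE, grouped by class, in 3 panels for AAV-GFP against intact, AAV-SIRT3 against intact and AAV-SIRT3 against AAV-GFP. Red points passed the threshold: 3 in the first panel, 15 in the second and 0 in the third.

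Within the Kv1 family, which opens at low voltages along axons and at nerve terminals, 1 of 6 tested members rose and 2 fell in AAV-SIRT3 against intact, beside 11.3% of all genes higher and 10.3% lower. Kcna6 maps to the minus strand of chromosome 6 at 126708329 to 126740674 (GRCm38, GENCODE M21). Its normalised reads ran from 5721 to 6367 (median 5923) in intact mice, from 6267 to 6632 (median 6596) with AAV-GFP and from 6618 to 7232 (median 6927) with AAV-SIRT3. Every AAV-SIRT3 library lay above every intact library, and AAV-GFP libraries lay between them and overlapped both. The log2 fold change was 0.21 (SE 0.0335, adjusted p = 0.000617) in AAV-SIRT3 and 0.13 (SE 0.0335, adjusted p = 0.0536) in AAV-GFP against intact. In AAV-GFP it passed without AAV-GFP replicate 1 or intact replicate 6 (adjusted p = 0.0348 and 0.0271). With all 18 libraries it passed there with DESeq2, TMM scaling and array weights (adjusted p = 0.0144, 0.0475 and 0.0396). It also passed with a mean of at least 50, replicate numbers as a block and the length trend removed (adjusted p = 0.0424, 0.0483 and 0.0351). It did not pass in the other alternatives, among them the thalamus score as a covariate.

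Kcna3, which is also a channel of microglia, maps to the plus strand of chromosome 3 at 107036169 to 107038070. It ran from 329 to 594 (median 440.4) in intact mice, from 164 to 411 (median 331) with AAV-GFP and from 209 to 313 (median 263) with AAV-SIRT3. Each AAV-SIRT3 library was below each intact library, while AAV-GFP overlapped both and held the lowest library of all, replicate 2 at 164. The log2 fold change was -0.80 (SE 0.176, adjusted p = 0.00358) in AAV-SIRT3 and -0.55 (SE 0.176, adjusted p = 0.0953) in AAV-GFP against intact, so Kcna3 had the largest fall among the called members. In AAV-GFP against intact Kcna3 passed with DESeq2 (-0.52, adjusted p = 0.033). Of 10 microglial markers 6 were higher in AAV-SIRT3 than in intact libraries (beside 11.3% of all genes) and 0 lower, with summed levels of 19268 to 21721 in intact mice, 21293 to 26856 with AAV-GFP and 21602 to 25428 with AAV-SIRT3 and 0 of the 10 at 0. Their part in the values of Kcna3 was not tested. Kcna1, a pore subunit of axonal Kv1 channels, maps to chromosome 6 at 126640397 to 126646384, 61.9 kb from Kcna6 and on the same strand. It ran from 4428 to 7553 (median 4883) in intact mice, from 2873 to 4694 (median 4143) with AAV-GFP and from 2708 to 4113 (median 3852) with AAV-SIRT3. Intact replicate 1 stood highest, but all AAV-SIRT3 libraries were below all intact ones, with a log2 fold change of -0.55 (SE 0.131, adjusted p = 0.00594), and -0.37 (SE 0.131, adjusted p = 0.125) in AAV-GFP. The neighbours Kcna1 and Kcna6 thus changed in opposite directions. Kcna2, the Kv1 gene with the highest level per kb, gave -0.16 (SE 0.0708, adjusted p = 0.113), and Kcna4 and Kcna5 gave 0.15 and -0.03, which did not pass. In AAV-SIRT3 against intact, Kcna2 passed with quantile normalisation (-0.19, adjusted p = 0.0249). With the length trend removed it gave 0.04 (adjusted p = 0.724).

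The calls of Kcna1, Kcna3, Kcna6 and Kcnip4 in AAV-SIRT3 against intact held in each of 13 alternative analyses, in each of 18 that left out a library, and with intact replicates 1, 3 and 5 all left out. Those last fold changes were -0.50, -0.72, 0.19 and 0.21 (adjusted p = 0.0315, 0.0348, 0.0154 and 0.0376). The 250 bases upstream of the starts of 3 of these genes are shown because these changes were the ones that held in both directions (RefSeq, GRCm38.p6, 5′ to 3′). Capitals mark GGGCGG, the GC box, on either strand.
Kcna6, chr6:126740675-126740924, minus strand: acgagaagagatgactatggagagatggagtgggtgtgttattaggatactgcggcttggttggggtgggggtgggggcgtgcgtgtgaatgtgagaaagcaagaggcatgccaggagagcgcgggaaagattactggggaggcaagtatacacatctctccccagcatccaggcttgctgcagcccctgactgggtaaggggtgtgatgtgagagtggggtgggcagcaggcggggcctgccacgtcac
Kcnip4, chr5:49285660-49285909, minus strand: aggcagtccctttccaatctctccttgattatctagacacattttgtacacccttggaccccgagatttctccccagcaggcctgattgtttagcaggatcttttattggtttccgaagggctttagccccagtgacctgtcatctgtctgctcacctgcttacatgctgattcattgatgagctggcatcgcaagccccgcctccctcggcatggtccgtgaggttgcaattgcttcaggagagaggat
Kcnip4, chr5:48599683-48599932, minus strand: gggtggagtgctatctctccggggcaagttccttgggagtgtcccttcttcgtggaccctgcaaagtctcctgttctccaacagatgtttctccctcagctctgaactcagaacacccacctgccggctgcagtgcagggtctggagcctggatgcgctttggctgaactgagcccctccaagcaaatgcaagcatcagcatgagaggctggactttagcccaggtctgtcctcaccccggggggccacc
Kcna3, chr3:107035912-107036161, plus strand: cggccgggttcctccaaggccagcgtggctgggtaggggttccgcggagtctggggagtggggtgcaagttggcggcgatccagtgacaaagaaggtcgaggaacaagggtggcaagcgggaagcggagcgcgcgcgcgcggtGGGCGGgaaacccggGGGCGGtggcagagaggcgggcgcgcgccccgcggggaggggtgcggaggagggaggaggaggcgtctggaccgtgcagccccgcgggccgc
Promoters were found for 66 of the 91 members, 90 promoters in all. GGGCGG or its reverse complement CCGCCC was in 44.4% of them, beside 32.7% of all 32851 promoters of the same length, and TATAAA (or TTTATA) was in 2.22%, beside 12.4%. CACGTG was in 6.67%, beside 6.02%, and TGACGTCA in 0%, beside 1.55%. Median GC content was 58.2%, beside 52.4%. The Kcna3 promoter, of a gene that fell, held 2 GC boxes, 31 CpG sites and 74.4% GC, while that of Kcna6, which rose, held 0 boxes, 8 CpG sites and 58.8% GC. Neither promoter of Kcnip4 held a GC box. A match is a description of the letters in this window.

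Kcnip4 was the only member called in both comparisons with intact to have risen. It maps to the minus strand of chromosome 5 at 48389502 to 49524907. It ran from 4762 to 5748 (median 4866) in intact mice, from 5731 to 6498 (median 5968) with AAV-GFP and from 5631 to 6551 (median 6156) with AAV-SIRT3. AAV-SIRT3 and AAV-GFP libraries covered nearly the same range, and the log2 fold change against intact was 0.28 (SE 0.0504, adjusted p = 0.00121) in AAV-SIRT3 and 0.25 (SE 0.0504, adjusted p = 0.0168) in AAV-GFP. The call in AAV-GFP held without each single library and was lost with the thalamus score as a covariate (fold change 0.14, adjusted p = 0.247) and without intact replicates 1, 3 and 5 (0.18, adjusted p = 0.297). Kcnip4 spans many annotated transcripts on both strands, so its reads could include theirs. Its Kv4 partners, the A-type pores, gave 0.11 for Kcnd2 and -0.10 for Kcnd3 in AAV-SIRT3 (adjusted p = 0.237 and 0.187) and 0.13 and -0.18 in AAV-GFP against intact (adjusted p = 0.263 and 0.086). Both values in AAV-SIRT3 moved with the setting: with the thalamus score as a covariate they were -0.03 (adjusted p = 0.831) and -0.19 (adjusted p = 0.0488, which passed), and with the length trend removed 0.17 (adjusted p = 0.0366, which passed) and 0.01 (adjusted p = 0.935). In AAV-GFP, Kcnd3 passed with DESeq2, with array weights and without AAV-SIRT3 replicate 6 (adjusted p = 0.0403, 0.0322 and 0.0482). Kcnd1, the other Kv4 pore, passed there with DESeq2 (-0.22, adjusted p = 0.0232) and without AAV-GFP replicate 6 (-0.25, adjusted p = 0.0462). None of the 13 other tested auxiliary subunits passed in the 3 comparisons as fitted with all 18 libraries, beside 21.7% of all genes in AAV-SIRT3 against intact. Under other settings of the same libraries 2 passed in AAV-SIRT3 against intact, Kcne1l with the thalamus score as a covariate (0.32, adjusted p = 0.028) and Kcnab3 with array weights, which weight each library by its spread (0.19, adjusted p = 0.0292). Kcnip1 and Kcnab3 also passed there without single libraries, Kcnip1 without AAV-GFP replicate 3, AAV-SIRT3 replicate 1 or intact replicate 2 (0.18, 0.21 and 0.22, adjusted p = 0.0454, 0.0468 and 0.028) and Kcnab3 without intact replicate 1 (0.20, adjusted p = 0.0271). Kcnab2 gave 0.05 in AAV-SIRT3 against intact.

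Among Kv2 delayed rectifiers, which sit on cell bodies and nearby dendrites, Kcnb2 fell in AAV-SIRT3 and in AAV-GFP against intact. Kcnb2, on chromosome 1 at 15287254 to 15723750, ran from 1516 to 1666 (median 1569) in intact mice, from 977 to 1435 (median 1271) with AAV-GFP and from 1133 to 1456 (median 1205) with AAV-SIRT3. All libraries of both virus groups were below all intact ones. The log2 fold change was -0.35 (SE 0.0747, adjusted p = 0.00315) in AAV-SIRT3 and -0.33 (SE 0.0747, adjusted p = 0.03) in AAV-GFP. In AAV-GFP the call was lost without AAV-GFP replicate 3 or 5 or intact replicate 3, 4 or 5, with adjusted p from 0.0507 to 0.0641 and fold changes of -0.32 to -0.34. Kcnb2 has the longest transcript of the called members, 14845 bases, and with the trend of each library with transcript length removed its fold change in AAV-SIRT3 was -0.10 (adjusted p = 0.137).

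The silent subunits, which form no channel alone and assemble with Kv2, had 1 call of 9 (beside 21.7% of all genes) in AAV-SIRT3 against intact, Kcnf1. It ran from 934 to 2011 (median 1808) in intact mice, from 1618 to 2242 (median 2115) with AAV-GFP and from 1854 to 2557 (median 2212) with AAV-SIRT3. The groups overlapped, and the 3 lowest intact libraries were replicates 1, 3 and 5, at 934, 1399.8 and 1643. The log2 fold change was 0.46 (SE 0.139, adjusted p = 0.0223) in AAV-SIRT3 and 0.35 (SE 0.139, adjusted p = 0.17) in AAV-GFP. It lost its call without AAV-SIRT3 replicate 5 (0.42, adjusted p = 0.0528) or intact replicate 3 (0.42, adjusted p = 0.0515), and without intact replicates 1, 3 and 5 it was 0.15 (adjusted p = 0.313). Without intact replicate 1, Kcng1 and Kcng3 passed in AAV-SIRT3, at -0.41 and -1.48 (adjusted p = 0.0452 and 0.0233), and Kcng1 in AAV-GFP, at -0.57 (adjusted p = 0.0474). With all 18 libraries, array weights and the replicate block called Kcng1 in AAV-SIRT3 (adjusted p = 0.0458 and 0.0356) and in AAV-GFP (adjusted p = 0.0421 and 0.0264). DESeq2 called Kcng1 in AAV-GFP (adjusted p = 0.0263). Kcng3 passed in AAV-SIRT3 with DESeq2 and with array weights (adjusted p = 0.0403 and 0.0148). Kcng4, the silent subunit with the highest level per kb, gave -0.09 (SE 0.103, adjusted p = 0.56).

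Kv3 channels, which let neurons fire fast, had 0 calls among 4 members in each comparison, beside 21.7% of all genes in AAV-SIRT3 against intact. Kcnc1 gave -0.07 (SE 0.0462, adjusted p = 0.29) in AAV-SIRT3 against intact and -0.01 against AAV-GFP. The range over the Kv3 genes in AAV-SIRT3 against intact was -0.12 to 0.27. Single libraries bore on the call of Kcnc2 in that comparison. Kcnc2, with 0.27 (SE 0.107, adjusted p = 0.069), passed without AAV-SIRT3 replicate 6 or intact replicate 2 or 6 (adjusted p = 0.0319, 0.019 and 0.0355).

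The EAG, ERG and ELK genes had 3 falls among 8 members in AAV-SIRT3 against intact, beside 10.3% of all genes lower. The calls of Kcnh1 and Kcnh7 were lost with the length trend removed and without intact replicates 1, 3 and 5. With the thalamus score as a covariate all 3 were lost. Kcnh5, an EAG channel, ran from 376 to 683 (median 444) in intact mice, from 327 to 495 (median 419) with AAV-GFP and from 291 to 362 (median 322) with AAV-SIRT3. AAV-SIRT3 libraries were all below the intact ones and overlapped AAV-GFP, with -0.51 (SE 0.13, adjusted p = 0.00844) in AAV-SIRT3 and -0.17 (SE 0.13, adjusted p = 0.5) in AAV-GFP against intact. Kcnh7, an ERG channel, ran from 2271 to 2700.1 (median 2398) in intact mice, from 1658 to 2518 (median 2211) with AAV-GFP and from 1805 to 2274 (median 2026) with AAV-SIRT3. The groups overlapped, and the fold change was -0.27 (SE 0.0763, adjusted p = 0.0158). Kcnh1, the other EAG channel, ran from 935 to 1258 (median 1032) in intact mice, from 692 to 1109 (median 837) with AAV-GFP and from 767 to 1081 (median 831) with AAV-SIRT3, with wide overlap and -0.28 (SE 0.101, adjusted p = 0.0497). In AAV-GFP it gave -0.33 (SE 0.101, adjusted p = 0.0863) and passed without AAV-GFP replicate 5 (-0.40, adjusted p = 0.0492) or with DESeq2 (-0.32, adjusted p = 0.0365). The call of Kcnh1 was the weakest: it was lost when any 1 of 13 libraries was left out, AAV-GFP replicates 1, 3, 4 and 6, AAV-SIRT3 replicates 1, 2, 3 and 6 and all intact replicates other than replicate 1, with adjusted p from 0.0528 to 0.119. Kcnh2, the ERG gene with the highest level per kb of the class, gave 0.03 (SE 0.0609, adjusted p = 0.78).

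Of 10 inward rectifiers tested, 1 rose and 1 fell in AAV-SIRT3 against intact, beside 11.3% of all genes higher and 10.3% lower. Kcnj9, a subunit of the G-protein-gated channels that silence neurons on transmitter release, ran from 3481 to 5978 (median 4940.2) in intact mice, from 5447 to 6295 (median 5918) with AAV-GFP and from 5474 to 6490.3 (median 5850.3) with AAV-SIRT3. Here too the lowest intact libraries were replicates 1, 3 and 5, at 3481, 4328 and 4381, all below every AAV-GFP and AAV-SIRT3 library. The other intact libraries lay within the range of the virus groups. The log2 fold change was 0.31 (SE 0.0921, adjusted p = 0.0194) in AAV-SIRT3 and 0.31 (SE 0.0921, adjusted p = 0.079) in AAV-GFP, where it passed without intact replicate 2 (0.37, adjusted p = 0.0278) or with DESeq2 (0.28, adjusted p = 0.0395). Without intact replicates 1, 3 and 5 it was 0.07 in AAV-SIRT3 (adjusted p = 0.464), and with the thalamus score as a covariate 0.03 (adjusted p = 0.738). Kcnj6, its partner, which was left out of the members by the rule, fell in AAV-SIRT3 against intact, from 605 ± 81 to 389 ± 103 normalised reads (log2 fold change -0.66, SE 0.143, adjusted p = 0.00324, SD over n = 6). With AAV-GFP Kcnj6 was 438 ± 84.6 (-0.48 against intact, SE 0.143, adjusted p = 0.0787). Between the virus groups it gave -0.19 (SE 0.143, adjusted p = 0.556).

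Kcnj2, a strong inward rectifier of neurons and vessels, ran from 857 to 1086 (median 948) in intact mice, from 782 to 1041 (median 930.3) with AAV-GFP and from 736 to 867 (median 806) with AAV-SIRT3. Its groups overlapped, and the fold change was -0.23 (SE 0.0733, adjusted p = 0.0303) in AAV-SIRT3 and -0.04 (SE 0.0733, adjusted p = 0.825) in AAV-GFP. The call was lost without intact replicate 1 or 3 or AAV-SIRT3 replicate 2 or 6 (-0.19, -0.22, -0.20 and -0.21, adjusted p = 0.0718, 0.0583, 0.0687 and 0.0645). Of 6 endothelial markers 3 were lower in AAV-SIRT3 than in intact libraries, beside 10.3% of all genes, and 0 higher (median log2 fold change -0.33, beside 0.00 over all genes), with summed levels of 9497 to 12505 in intact mice, 10119 to 12354 with AAV-GFP and 8631 to 11554 with AAV-SIRT3, and of 8 markers of pericytes and smooth muscle 1 was lower (median -0.21), with sums of 12449 to 15668 in intact mice, 12099 to 15499.6 with AAV-GFP and 10381 to 14339 with AAV-SIRT3. Of these markers 0 were at 0 in all libraries, and their part in the fall of Kcnj2 was not tested. The ATP-sensitive pores Kcnj11 and Kcnj8 gave 0.07 (SE 0.0461, adjusted p = 0.262) and 0.16 (SE 0.131, adjusted p = 0.423), and Kcnj16 gave -0.05 (SE 0.0674, adjusted p = 0.652). Kcnj12, another strong inward rectifier, passed without intact replicate 6 (0.29, adjusted p = 0.0412).

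K2P leak channels, which carry the resting potassium current, had 2 rises and 1 fall among 11 tested members in AAV-SIRT3 against intact, beside 11.3% of all genes higher and 10.3% lower. Kcnk1 ran from 3733 to 4215 (median 4023) in intact mice, from 3918 to 4727 (median 4380.1) with AAV-GFP and from 4309.5 to 4878 (median 4607) with AAV-SIRT3. Its AAV-SIRT3 libraries were all above the intact ones, with 0.20 (SE 0.0461, adjusted p = 0.00442) in AAV-SIRT3 and 0.11 (SE 0.0461, adjusted p = 0.178) in AAV-GFP. Kcnk3, an acid-sensitive leak channel, ran from 1399.8 to 1565 (median 1478) in intact mice, from 1473 to 1747 (median 1635) with AAV-GFP and from 1538 to 2080.4 (median 1725) with AAV-SIRT3. It overlapped between groups and gave 0.26 (SE 0.0594, adjusted p = 0.00459) and 0.13 (SE 0.0594, adjusted p = 0.233). Kcnk9, the other acid-sensitive channel and a possible partner of Kcnk3 in one channel, ran from 6849 to 9133 (median 7278) in intact mice, from 6189 to 6835 (median 6307) with AAV-GFP and from 6089 to 7032 (median 6572) with AAV-SIRT3. It moved the opposite way, with -0.20 (SE 0.0556, adjusted p = 0.0137) in AAV-SIRT3 and -0.23 (SE 0.0556, adjusted p = 0.0388) in AAV-GFP, where all libraries were below the intact ones. In AAV-GFP the call was lost when any 1 of 9 libraries was left out, AAV-GFP replicates 2, 3, 4 and 5, AAV-SIRT3 replicate 1 and intact replicates 1, 3, 4 and 5, with adjusted p from 0.0501 to 0.0963. Without intact replicates 1, 3 and 5, Kcnk1 gave 0.19, Kcnk3 0.22 and Kcnk9 -0.11 in AAV-SIRT3 (adjusted p = 0.0525, 0.0754 and 0.155). Kcnk5 passed in AAV-SIRT3 with array weights (-0.58, adjusted p = 0.0375) and without AAV-SIRT3 replicate 6 or intact replicate 2 (-0.66 and -0.63, adjusted p = 0.0244 and 0.0381). Kcnk10 passed there without AAV-SIRT3 replicate 3 (-0.22, adjusted p = 0.0404). Kcnk13 gave -0.01.

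Of the 8 genes classed here with the calcium- or sodium-activated channels, Kcnu1 among them, 1 was called in AAV-SIRT3 against intact (beside 21.7% of all genes). It was Kcnt1, a sodium-activated channel. It ran from 6635 to 7471 (median 7265) in intact mice, from 6089 to 6707 (median 6461) with AAV-GFP and from 6248 to 7094 (median 6499) with AAV-SIRT3. The groups overlapped and the fold change was small, -0.12 (SE 0.0382, adjusted p = 0.0319) in AAV-SIRT3 and -0.14 (SE 0.0382, adjusted p = 0.0537) in AAV-GFP. In AAV-GFP it passed without AAV-SIRT3 replicate 6 or intact replicate 2 or 6 (adjusted p = 0.0357, 0.0416 and 0.0294). With all 18 libraries it passed there with DESeq2, array weights and a mean of at least 50 (adjusted p = 0.0146, 0.0274 and 0.0447). The AAV-SIRT3 call was lost when any 1 of 7 libraries was left out, AAV-SIRT3 replicates 1, 4 and 5 and intact replicates 1, 3, 4 and 5, with adjusted p from 0.0559 to 0.0763, and with the replicate numbers as a block (adjusted p = 0.0623). Kcnn3 ran from 2551 to 3207 (median 2939.9) in intact mice, from 2307 to 3092 (median 2969) with AAV-GFP and from 2349 to 3077 (median 2842) with AAV-SIRT3, with overlapping groups and -0.07 (SE 0.0745, adjusted p = 0.526). Kcnma1, the large-conductance calcium-activated channel, gave -0.03 (SE 0.0727, adjusted p = 0.814). Kcnn4 was low and ran from 4.56 to 17 (median 10.2) in intact mice, from 6.87 to 23.9 (median 16) with AAV-GFP and from 10.8 to 32.6 (median 19.1) with AAV-SIRT3, with overlapping groups and 0.85 (SE 0.376, adjusted p = 0.112).

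**Figure D3:**
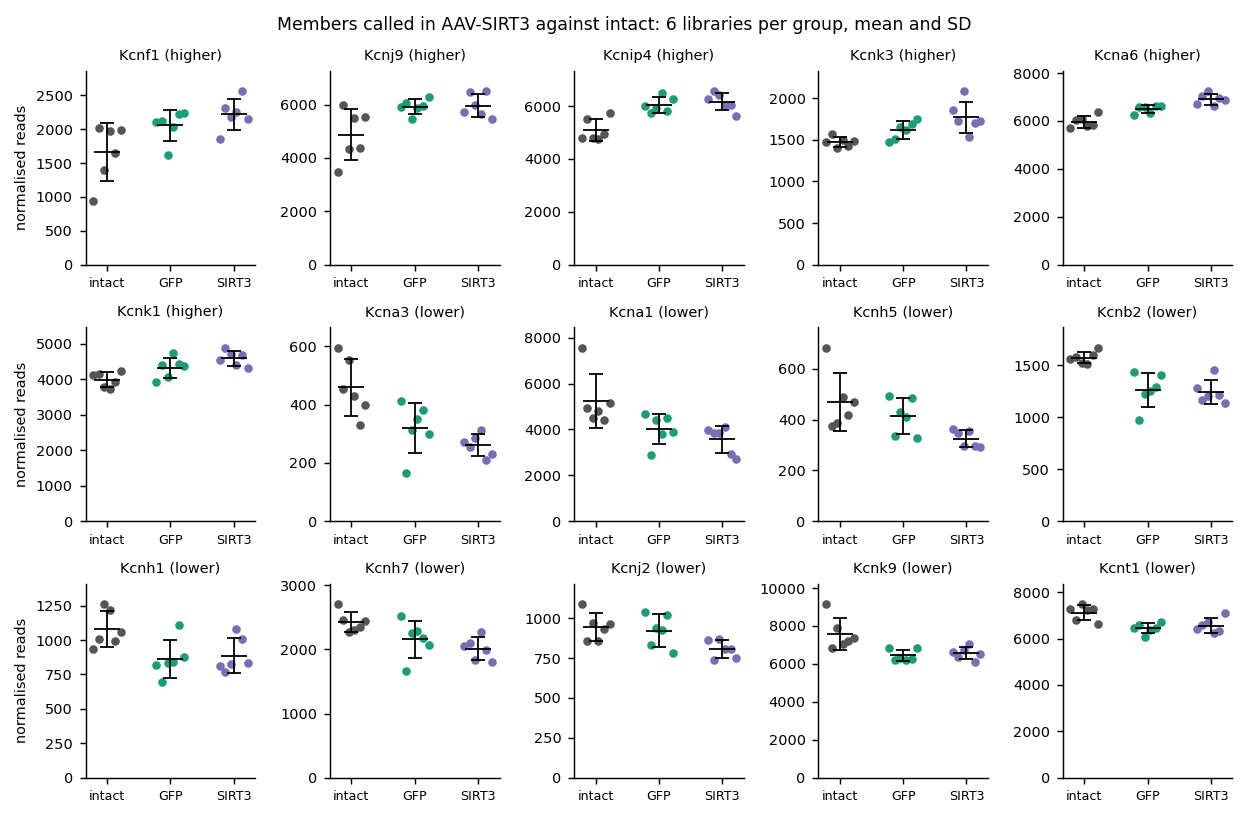
Normalised reads of the 15 members called in AAV-SIRT3 against intact, in each of the 6 intact, 6 AAV-GFP and 6 AAV-SIRT3 libraries (axes from 0), with bars for the mean and SD. Only Kcna1, Kcna3, Kcna6, Kcnb2, Kcnh5 and Kcnk1 have no overlap between intact and AAV-SIRT3 libraries.

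Transcript length moved with these changes. The tested members had longer transcripts than all genes, with a median of 3808.5 against 2826 bases. Among the 20 members with the longest transcripts (over 5231.5 bases), 17 lay below 0 in AAV-SIRT3 against intact with a median log2 fold change of -0.11, and among the 20 with the shortest (under 2727 bases) 5 lay below 0 with a median of 0.17. In AAV-GFP against intact, 16 of 20 long and 4 of 20 short members lay below 0. Across the 80 members, the Spearman correlation of fold change with length was -0.34 in AAV-SIRT3 and -0.30 in AAV-GFP against intact, and -0.02 between the virus groups. These are descriptions across genes that share libraries. With the length trend of each library removed, 13 members were called in AAV-SIRT3 against intact, 10 higher and 3 lower in place of 6 and 9, beside 15.3% of all genes (8.69% higher and 6.62% lower). Kcnc2, Kcnd2, Kcnma1 and Kcnq3 joined the genes that were higher. Kcna1, Kcna3 and Kcnh5 stayed lower, while Kcnb2, Kcnh1, Kcnh7, Kcnj2, Kcnk9 and Kcnt1 no longer passed, with fold changes of -0.10, -0.17, -0.05, -0.16, 0.01 and -0.04. In AAV-GFP against intact 2 rose and 0 fell with the trend removed, beside 1.19% of all genes (0.722% higher and 0.472% lower). Kcnip4 was kept there and Kcna6 gained (0.17, adjusted p = 0.0351), while Kcnb2 (-0.17, adjusted p = 0.0684) and Kcnk9 (-0.09, adjusted p = 0.453) were lost. After removal of the trend, 8 of the 20 long members lay below 0 in AAV-SIRT3 against intact (median 0.01) and 6 of the 20 short ones (median 0.13). In AAV-GFP against intact these were 13 of 20 (median -0.04) and 6 of 20 (median 0.13). The part of length in these differences was not tested further.

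**Figure D4:**
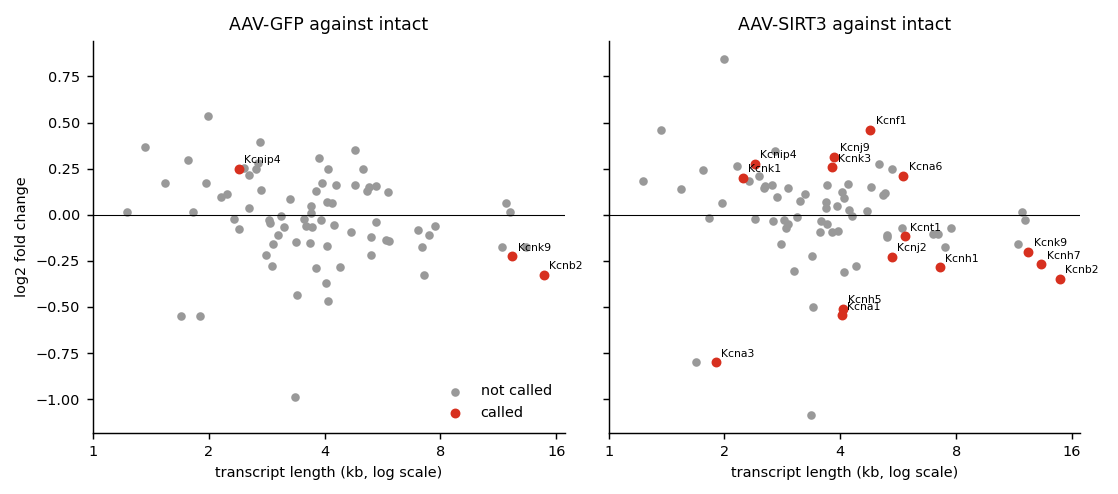
Log2 fold change of 77 of the 80 tested members against the length of their longest coding transcript (log axis), for AAV-GFP and AAV-SIRT3 against intact, with called members in red. Kcnb2, Kcnh7 and Kcnk9, the called members with the longest transcripts, all lie below 0.

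Markers of neighbouring tissues also differed between the groups. Of the 10 thalamus markers 6 were higher in AAV-SIRT3 and 2 in AAV-GFP than in intact libraries, beside 11.3% and 0.823% of all genes. Their summed levels were 57889 to 101933 in intact mice, 87753 to 99207 with AAV-GFP and 85102 to 108612 with AAV-SIRT3, with 0 of them at 0. Anterior pituitary markers went the other way, 4 of 5 lower in each virus group, beside 10.3% of all genes in AAV-SIRT3 and 1.02% in AAV-GFP. Their sums were 724 to 5414 in intact mice, 240.0 to 689.6 with AAV-GFP and 229 to 787 with AAV-SIRT3. With the thalamus score as a covariate, 7 of 80 members were called in AAV-SIRT3 against intact, 3 higher and 4 lower, beside 10.9% of all genes (5.73% higher and 5.21% lower). Of the 15 calls 5 were kept, Kcna1, Kcna3, Kcna6, Kcnb2 and Kcnip4, and 10 were lost, among them Kcnh5 (-0.41, adjusted p = 0.101). Kcne1l and Kcnd3 were gained. Without intact replicates 1, 3 and 5, which leaves 3 intact libraries, 6 were called, 2 higher (Kcna6 and Kcnip4) and 4 lower (Kcna1, Kcna3, Kcnb2 and Kcnh5), beside 8.67% of all genes, and 0 in AAV-GFP against intact, beside 0.0514%. These 6 were all among the 15. The plot against the thalamus score shows Kcnj9, Kcnf1 and Kcna6. For Kcnj9 and Kcnf1 the 3 lowest intact libraries were those low in these markers. For Kcnf1, AAV-GFP replicate 3 at 1618 was below intact replicate 5 at 1643. Kcna6 was 5721, 6089 and 5824 in those 3 intact libraries and 6022, 5780.3 and 6367 in the other intact ones. What part thalamic tissue has in the called members was not tested beyond these fits.

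**Figure D5:**
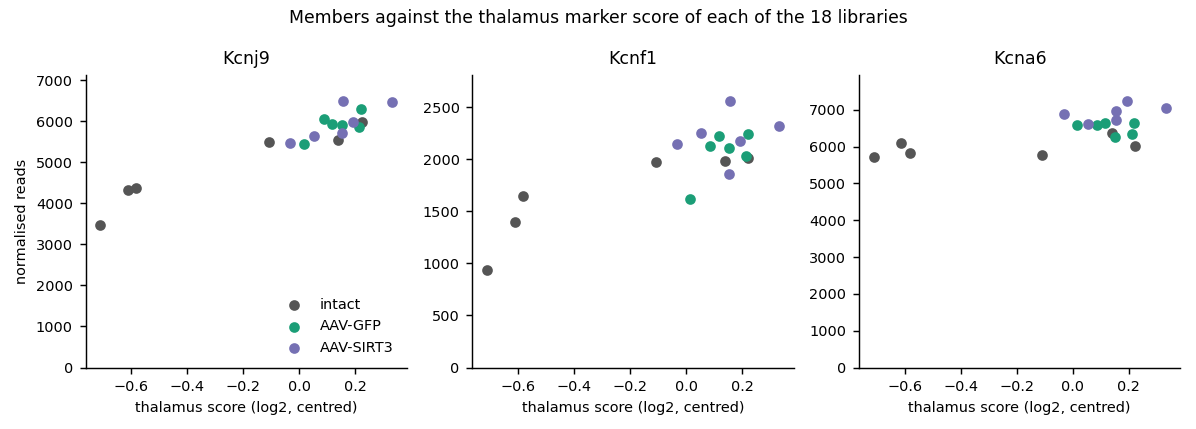
Normalised reads of Kcnj9, Kcnf1 and Kcna6 in each of the 18 libraries against the library's thalamus score (mean log2 value of 10 markers, centred). The 3 intact libraries at scores of -0.712 to -0.583 are the lowest for Kcnj9, and for Kcna6 they overlap the other intact libraries.

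Of 31 other genes that handle potassium or partner its channels (auxiliary subunits under other names, HCN channels, subunits of the Na+/K+ pump, cation-chloride cotransporters and the 3 Kcnj genes left out), 30 were tested. Between the virus groups and in AAV-GFP against intact 0 were called, beside 0.113% and 1.84% of all genes. In AAV-SIRT3 against intact 5 of the 30 fell and 0 rose, beside 10.3% of all genes lower and 11.3% higher. Besides Kcnj6, those that fell included the cotransporter Slc12a7, with -0.61 (adjusted p = 0.00656), Cntnap2, which clusters Kv1 channels beside the nodes of axons, with -0.16 (adjusted p = 0.0215), and Kcnj13 with -1.74 (adjusted p = 0.0397). Kcnj13 was low and spread widely, at 91.4 ± 64.9 normalised reads in intact mice, 77.9 ± 78.1 with AAV-GFP and 31.7 ± 25 with AAV-SIRT3 (SD, n = 6 each). All 6 subunits of the Na+/K+ pump stayed uncalled. The calls of Kcnj6 and Slc12a7 held without each single library. That of Cntnap2 was lost without AAV-SIRT3 replicate 5 or 6 or intact replicate 3, and that of Kcnj13 without AAV-SIRT3 replicate 2, 3, 4 or 5 or intact replicate 2, 4, 5 or 6, with adjusted p of at most 0.0527 and 0.0948.

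Spread within a group differed widely among the members. Over the 75 members with a mean of at least 50 normalised reads in intact libraries, the coefficient of variation had a median of 13.2% in intact mice, 10.7% with AAV-GFP and 9.71% with AAV-SIRT3, with 7, 5 and 7 members over 30%. Kcnj11, Kcnb2 and Kcna6 varied little among intact mice, at 3.39%, 3.47% and 4.06%. Kcne2, an auxiliary subunit abundant in the choroid plexus and singled out after its values were seen, was 280.1 normalised reads in intact replicate 2 and 283 in AAV-GFP replicate 5 and at most 32.9 in the other 16 libraries. The summed level of 7 choroid plexus markers was highest in the same 2 libraries, 50049 and 44314, against group medians of 2184, 1718 and 1468 for intact, AAV-GFP and AAV-SIRT3 mice. Kcnh3 and Kcnj4, 2 more such genes, ranged over 49.4 to 342 and 95.7 to 544 normalised reads over the 18 libraries, with every group spread over most of that range.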

How the data were processed

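RNA from 18 substantia nigra samples was read in pairs of 100 bp from a stranded poly-A kit, per the labels' protocols. The values the authors deposited are a signal per gene: reads per gene divided by 1 size factor per library, with HISAT2 2.1.0, DESeq2 1.34.0 and the build mm10 named per the submitters' processing notes. The annotation and the strand setting of the counting are not given in the sources used here, so reads of opposite-strand neighbours (Gm26673 at Kcna6, Gm27008 at Kcna3, Hhat at Kcnh1, Gca at Kcnh7) cannot be told apart from those of the member. Whole reads were recovered for 100% of the values (tolerance 1e-06 reads). The size factors of intact replicate 4 (1.00) and AAV-SIRT3 replicate 4 (1.01) are close to 1, so their steps are a weaker sign of whole reads. The row that names no gene held at most 0.000289% of the reads and was left out.

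Values were taken as log2(value + 1), which understates fold changes of low genes, and fitted with limma 3.58.1 (R 4.3.3) in 1 model of 3 groups with a variance trend and 15 residual degrees of freedom. Adjustment was by Benjamini-Hochberg over 19442 genes in each comparison, at 0.05. Alternatives used edgeR 4.0.16 or DESeq2 1.42.0 on the whole reads, other scalings, filters and pseudocounts, a length trend removed by lowess, a thalamus score as covariate and each library left out, and the fit was checked on simulated data. Leaving out intact replicates 1, 3 and 5 together was added after seeing the data. Lengths and positions are from GENCODE M21, which matched all 91 members by symbol.

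The members, gene lists and tests were chosen with earlier results of these data known. Named are called members with a mean of at least 50 normalised reads (at most 10 rises and 10 falls per comparison with intact), the member with the highest level per kb of each class and 14 textbook channels. Results of some of these genes are not reported here. Other members named for a call that depended on a setting were chosen after their values were seen. Replicates differed by more than counting noise (chi-square per degree of freedom 8.05 to 36.3). Counting error alone is covered by statements on depth.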

Additional observations from a re-analysis of the deposited data

Results flagged for a closer look

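Over 31 named members in 3 groups, 93 sets of 6 values were examined for a single library far from the rest, where chance gives about 1 in 20 groups, or 4.65, and 6 stood out. Intact replicate 1 was the far library in 4 of them, each time as the highest: Kcna1 at 7553 normalised reads (next 5162), Kcng4 at 2820 (next 2064), Kcnh2 at 5711 (next 4792) and Kcnh5 at 682.6 (next 488.5). This library also has the lowest thalamus score, -0.712, and its part in these values was not tested. Kcna1 and Kcnh5 stayed called in AAV-SIRT3 against intact without it. AAV-GFP replicate 3 was the lowest for Kcnf1, at 1618 (next 2031), and AAV-SIRT3 replicate 6 the lowest for Kcnj11, at 1662 (next 1886).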

How the results depend on the processing

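Between the virus groups, 0 members were called in 12 of 13 other analyses and with intact replicates 1, 3 and 5 left out. DESeq2 called 1, Kcns3, beside 1.59% of all genes. Leaving out single libraries gave 0 to 1. The 1 came without AAV-GFP replicate 2, beside 4.43% of all genes, against 0.113% with all libraries. In AAV-GFP against intact, 3 members (beside 1.84% of all genes) became 11 with DESeq2 (5.14%), 7 with array weights (3.28%) and 5 with a mean of at least 50 (2.96%). They became 1 with no filter (0.426%), 0 with the thalamus score as a covariate (0.195%) and 0 without the 3 intact libraries (0.0514%). With single libraries left out the count was 1 to 5, beside 0.664 to 0.828% of all genes where it was 1 and 2.32 to 2.78% where it was 5. In AAV-SIRT3 against intact, 15 calls (21.7%) became 7 with the thalamus score (10.9%; 10 lost, and Kcne1l and Kcnd3 gained) and 6 without the 3 intact libraries (8.67%; 9 lost and 0 gained, with fewer samples), and 12 to 17 with single libraries left out; the other alternatives stayed within 1.5 times. The length trend turned Kcnk9 to 0.01 and Kcnma1 to 0.18, the latter then called (adjusted p = 0.0269). Replicate numbers are shared in the labels only as numbers: same-numbered libraries had correlations of deviations of -0.10 to 0.18, with 1 of 18 above 0.1, and with the replicate block 0, 5 and 15 members were called in AAV-SIRT3 against AAV-GFP, AAV-GFP against intact and AAV-SIRT3 against intact. The causes were not tested. Depth limits the 11 untested members, whose values never passed 19.2.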
